A study of Mus musculus with 8 samples.

Results

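The mRNAs of 10 genes that mark the birth of cortical neurons were followed in an RNA immunoprecipitation of the ribonuclease Exosc10. They are 10 of the 54838 mouse Ensembl genes with a deposited read count, taken from a list of names with no threshold on a measured value: Neurog2, Eomes, Neurod1, Tbr1, Bcl11b, Reln, Dcx, Tubb3, Map2 and Stmn2. The names were chosen with earlier results of these data known. In this assay, RIP-seq, an antibody pulls a protein out of lysed cells, and sequencing reads the RNA attached to it. The starting material was cells dissociated from the cortex of C57BL/6 mouse embryos at embryonic day 12.5, with no genetic change named in the labels. One group of 4 libraries was made with a rabbit antibody against Exosc10 and the other group of 4 was a mock pull-down with normal rabbit IgG. The series title names RNA binding by Exosc10 in this tissue, and the comparison asks which mRNAs took a larger share of reads with the specific antibody than with IgG. Libraries of input RNA were not analysed here, so a value compares 2 pull-downs and is not an enrichment over the RNA of the cells.

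Exosc10 is a 3′ to 5′ exoribonuclease that works with the nuclear RNA exosome, which trims and degrades many kinds of RNA. In the embryonic cortex, radial glia divide to give intermediate progenitors and neurons. Proneural factors of the basic helix-loop-helix family start this step, T-box and zinc finger factors then set the identity of progenitors and neurons, and cytoskeletal proteins carry the migration and growth of the new cells.

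Total gene counts ran from 20967743 to 34506709 per library, and 16716 genes had enough reads to be tested, all 10 of these among them. Separate litters or cultures are not named in the labels, so p-values reflect only how far these libraries differ from each other, which may be technical. The libraries numbered 1 had the fewest reads of each group and lay at an extreme for several of the genes below, so the fold changes of those genes are also given without both of them. Reads of the lineage markers were present throughout: no library held fewer than 8442 reads of Neurog2, 4612 of Eomes or 8525 of Tbr1. Markers of other cell types were not tested, so these counts do not check the cortical label. Values are CPM, the count over a library total that TMM (the trimmed mean of M-values) has adjusted for composition. CPM also grows with the length of a transcript, and no transcript lengths were used here, so levels are not compared between genes.

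None of the 10 mRNAs passed the threshold, a Benjamini-Hochberg adjusted p under 0.05 in the quasi-likelihood test of edgeR, in either direction. Over all tested genes 7.92% were called higher and 5.82% lower with Exosc10. This test did not pair libraries of the same number. With the replicate number as a block, edgeR called Bcl11b higher and Dcx and Map2 lower, beside 2489 of all 16716 genes higher and 2006 lower. At an unadjusted p under 0.05 in edgeR, 1 of the 10 was higher (Bcl11b) and 2 were lower (Dcx and Map2), beside 15.8% higher and 14.8% lower of all tested genes. The 10 fold changes were spread around no difference, 5 above and 5 below, with a median log2 fold change of Exosc10 over IgG of -0.05. The median over all tested genes was -0.03. A log2 difference smaller than 0.5 in either direction was seen for 8 of the 10 and for 63.9% of all tested genes. The 95% confidence interval left out a 2-fold difference in both directions for 9 of the 10, the exception being Dcx. It left out a 1.5-fold difference for 3 of them, Neurog2, Eomes and Reln. Bulk libraries do not tell fewer cells of a type from less of the RNA in each cell, and a share of a pull-down does not give an amount of bound RNA.

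**Figure D1:**
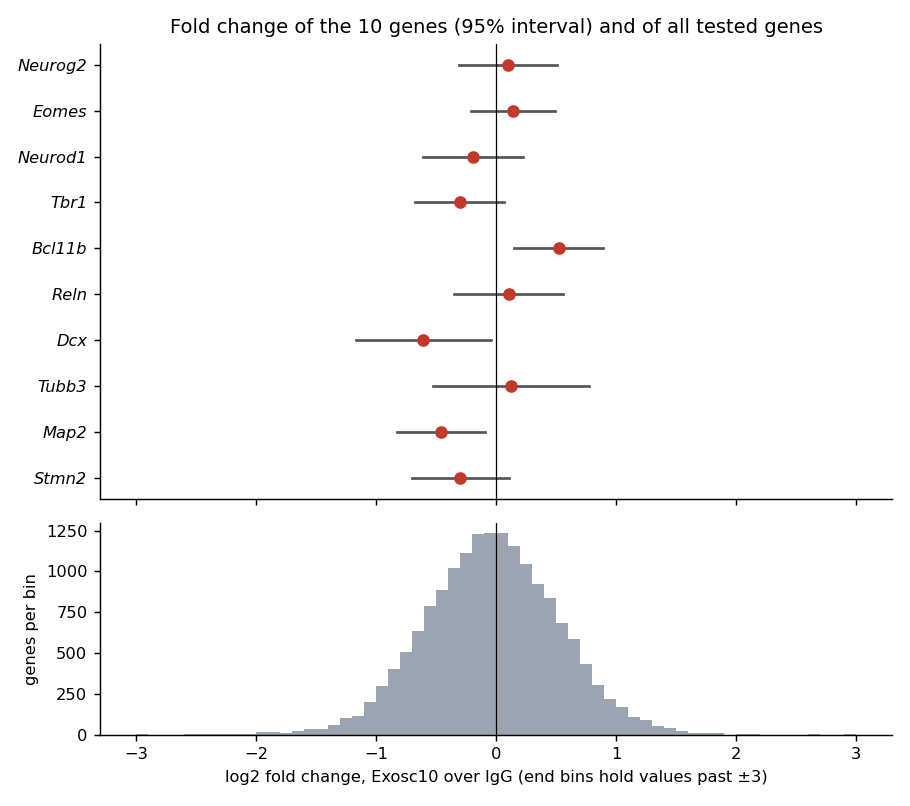
The upper panel plots the log2 fold change of Exosc10 over IgG for each of the 10 genes with its 95% confidence interval, and the lower panel the number of tested genes in each bin of 0.1. The intervals of Bcl11b, Dcx and Map2 lie to 1 side of 0, and all 10 values lie between -0.61 and 0.52, inside the main body of the distribution of all genes.

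Neurog2, a proneural factor that drives progenitors toward glutamatergic neurons, lies at chr3:127632733-127635636 (GRCm38.p6, ENSMUSG00000027967). It stood at 486, 362, 305 and 321 CPM in Exosc10 libraries 1 to 4 and at 390, 341, 349 and 298 CPM in IgG libraries 1 to 4. Both groups covered much the same range, and library 1 was the highest of each. The group means were 368 ± 81.8 and 345 ± 37.9 CPM (SD, n = 4 each), and the log2 fold change was 0.10 ± 0.19 (SE, edgeR adjusted p = 0.773). It was -0.06 without Exosc10 library 1, 0.17 without IgG library 1 and -0.000899 without both.

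Neurod1, a related factor that acts after Neurog2 in neuronal differentiation, lies at chr2:79452637-79456636 (ENSMUSG00000034701). Its values were 149, 116, 98.1 and 98.4 CPM with Exosc10 and 157, 142, 125 and 105 CPM with IgG. Here too the groups overlapped and library 1 was the highest of each. The log2 fold change was -0.19 ± 0.19 (SE, edgeR adjusted p = 0.533). It was -0.33 without Exosc10 library 1, -0.095 without IgG library 1 and -0.25 without both, with no adjusted p under 0.05 in edgeR.

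Eomes, also known as Tbr2, is the T-box factor of intermediate progenitors and lies at chr9:118478186-118486132 (ENSMUSG00000032446). It was measured at 246, 231, 212 and 202 CPM with Exosc10 and at 229, 208, 190 and 182 CPM with IgG. This was the steadiest of the 10 genes within the Exosc10 group, with a coefficient of variation of 8.85%, and in the IgG group it was 10.2%. The means of 223 ± 19.7 and 202 ± 20.6 CPM (SD, n = 4 each) differed by a log2 fold change of 0.14 ± 0.16 (SE, edgeR adjusted p = 0.608). It was 0.095 without Exosc10 library 1, 0.21 without IgG library 1 and 0.15 without both. A non-coding RNA gene, Gm33408, overlaps the start of the Eomes span in RefSeq, and the strand setting of the counting is not given in the sources used here.

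These 3 progenitor and commitment genes varied together from library to library inside the groups. After subtracting each group's mean, log2 CPM of Eomes and Neurod1 had a Pearson correlation of 0.95 over the 8 libraries, Neurog2 and Neurod1 one of 0.94, and Neurog2 and Eomes one of 0.84. This was not confined to them, since Tubb3 had correlations of 0.88 with Neurog2, 0.87 with Neurod1 and 0.76 with Eomes. The libraries share their preparation and depth between genes, so these are descriptions only. For these 3 regulators, which varied together, the 250 bases before a RefSeq transcript start are shown (GRCm38.p6, 5′ to 3′ on the gene's strand). Capitals mark the E-box, CANNTG, the motif bound by proneural factors, which reads alike on both strands. The windows are chr3:127632886-127633135 on the plus strand for Neurog2, chr2:79456637-79456886 on the minus strand for Neurod1 and chr9:118477939-118478188 on the plus strand for Eomes. The start used need not be the outermost of the gene: the Neurog2 window lies inside the gene span given above, and the Eomes window ends within its span.
Neurog2: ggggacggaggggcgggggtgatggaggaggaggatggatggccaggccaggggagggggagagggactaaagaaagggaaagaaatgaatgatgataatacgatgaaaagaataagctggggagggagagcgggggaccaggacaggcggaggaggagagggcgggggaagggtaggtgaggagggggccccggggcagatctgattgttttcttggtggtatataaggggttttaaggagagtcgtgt
Neurod1: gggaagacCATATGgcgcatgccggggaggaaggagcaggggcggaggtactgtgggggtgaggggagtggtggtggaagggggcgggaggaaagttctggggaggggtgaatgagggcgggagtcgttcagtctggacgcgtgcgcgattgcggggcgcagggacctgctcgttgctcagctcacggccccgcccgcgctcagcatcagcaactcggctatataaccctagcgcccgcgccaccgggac
Eomes: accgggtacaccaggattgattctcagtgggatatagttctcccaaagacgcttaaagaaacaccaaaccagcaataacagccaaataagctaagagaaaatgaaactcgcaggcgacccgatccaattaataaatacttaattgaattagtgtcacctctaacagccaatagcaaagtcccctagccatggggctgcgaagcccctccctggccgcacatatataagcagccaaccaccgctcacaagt

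Of the 3 windows only that of Neurod1 held an E-box. Over the 9 of the 10 genes that had a window, 3 held at least 1 (Neurod1, Tbr1 and Reln), and 66.2% of all 32851 RefSeq windows of this length did. The pull-down reads RNA and not promoter activity, so the match is a description of the letters in these windows.

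Tbr1 and Bcl11b are transcription factors of postmitotic neurons, and they lay on opposite sides of no difference. Tbr1, which specifies deep-layer neurons that project to the thalamus, lies at chr2:61802863-61814114 (ENSMUSG00000035033). It stood at 402, 333, 370 and 300 CPM in the Exosc10 libraries and at 382, 425, 505 and 421 CPM in the IgG libraries. Only Exosc10 library 1 reached into the IgG range, above IgG library 1. The log2 fold change was -0.30 ± 0.17 (SE, edgeR adjusted p = 0.255).

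Bcl11b, also known as Ctip2, is a zinc finger factor of neurons that project below the cortex and lies at chr12:107910403-108004145 (ENSMUSG00000048251). Its values were 368, 303, 278 and 248 CPM with Exosc10 and 203, 216, 197 and 217 CPM with IgG. Every Exosc10 library lay above every IgG library, and the IgG values were tightly grouped. The means were 299 ± 50.9 and 208 ± 9.7 CPM (SD, n = 4 each), a 1.44-fold difference. The log2 fold change of 0.52 ± 0.17 (SE, 95% confidence interval 0.15 to 0.89) had an unadjusted p of 0.00912. Its edgeR adjusted p was 0.0592, which does not pass 0.05 but was the lowest of the 10. Bcl11b was 1 of the 10 with separate groups in the higher direction, as were 10.6% of all tested genes. Without IgG library 1 the edgeR adjusted p was 0.0450, with a log2 fold change of 0.52. In that fit the calls over all genes rose from 2297 to 4046. Leaving out any other single library gave an edgeR adjusted p of 0.0792 to 0.144.

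Reln encodes reelin, the secreted protein by which Cajal-Retzius cells at the cortical surface guide migrating neurons, and spans chr5:21884454-22344705 (ENSMUSG00000042453). It was read at 256, 207, 359 and 235 CPM with Exosc10 and at 210, 254, 205 and 315 CPM with IgG. The groups overlapped almost completely, with Exosc10 library 3 and IgG library 4 the highest of their groups. The log2 fold change was 0.10 ± 0.21 (SE, edgeR adjusted p = 0.781), and it was -0.07 without Exosc10 library 3.

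Dcx, Map2, Stmn2 and Tubb3 encode proteins of the neuronal cytoskeleton. The product of Dcx is doublecortin, a microtubule-associated protein of migrating neurons, at chrX:143855842-143933396 (ENSMUSG00000031285). It stood at 257, 550, 616 and 445 CPM in the Exosc10 libraries and at 490, 699, 936 and 721 CPM in the IgG libraries. Library 1 was the lowest and library 3 the highest in both groups, and Exosc10 libraries 2 and 3 lay above IgG library 1. The means of 467 ± 157 and 711 ± 182 CPM (SD, n = 4 each) gave the most negative log2 fold change of the 10, -0.61 ± 0.26 (SE, 95% confidence interval -1.17 to -0.04). The p was 0.0368 unadjusted and 0.137 after adjustment in edgeR. With the replicate number as a block, the log2 fold change was -0.64 ± 0.15 (SE, edgeR adjusted p = 0.00648). The fold change was -0.40 without Exosc10 library 1, -0.74 without IgG library 1 and -0.55 without both.

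Map2, a microtubule-associated protein of dendrites and cell bodies, spans chr1:66175202-66442583 (ENSMUSG00000015222). Its values were 357, 397, 493 and 384 CPM with Exosc10 and 591, 560, 581 and 507 CPM with IgG. The highest Exosc10 library lay just below the lowest IgG library. Map2 was 1 of the 10 with separate groups in the lower direction, as were 8.45% of all tested genes. The means were 408 ± 59.1 and 560 ± 37.4 CPM (SD, n = 4 each), and the log2 fold change was -0.46 ± 0.17 (SE, 95% confidence interval -0.82 to -0.09). The unadjusted p was 0.0180 and the edgeR adjusted p 0.0879. RefSeq lists 4 non-coding genes or pseudogenes inside the span of Map2 and 3 inside that of Reln, whose reads may not be separable without strand.

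Stmn2, a stathmin that binds tubulin in growth cones, lies at chr3:8509527-8561604 (ENSMUSG00000027500). It was read at 334, 218, 220 and 246 CPM with Exosc10 and at 305, 364, 301 and 281 CPM with IgG. Exosc10 libraries 2 to 4 lay below all IgG libraries, and Exosc10 library 1 lay above 3 of the 4. The log2 fold change was -0.30 ± 0.19 (SE, edgeR adjusted p = 0.303).

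Tubb3, the beta-tubulin of neurons, lies at chr8:123411553-123422015 (ENSMUSG00000062380). It stood at 1583, 611, 588 and 631 CPM in the Exosc10 libraries and at 971, 897, 617 and 651 CPM in the IgG libraries. Exosc10 library 1 was 2.69 times the lowest library of its group and far above the other three, 2 of which lay below all IgG libraries. The log2 fold change was 0.12 ± 0.30 (SE, edgeR adjusted p = 0.825). Its sign rested on that library: without it the value was -0.35, with an edgeR adjusted p of 0.224. It was 0.25 without IgG library 1 and -0.24 without both. Beta-tubulin genes resemble each other closely and RefSeq lists a Tubb3 pseudogene, so reads could be divided between copies in a way that the counts do not show.

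**Figure D2:**
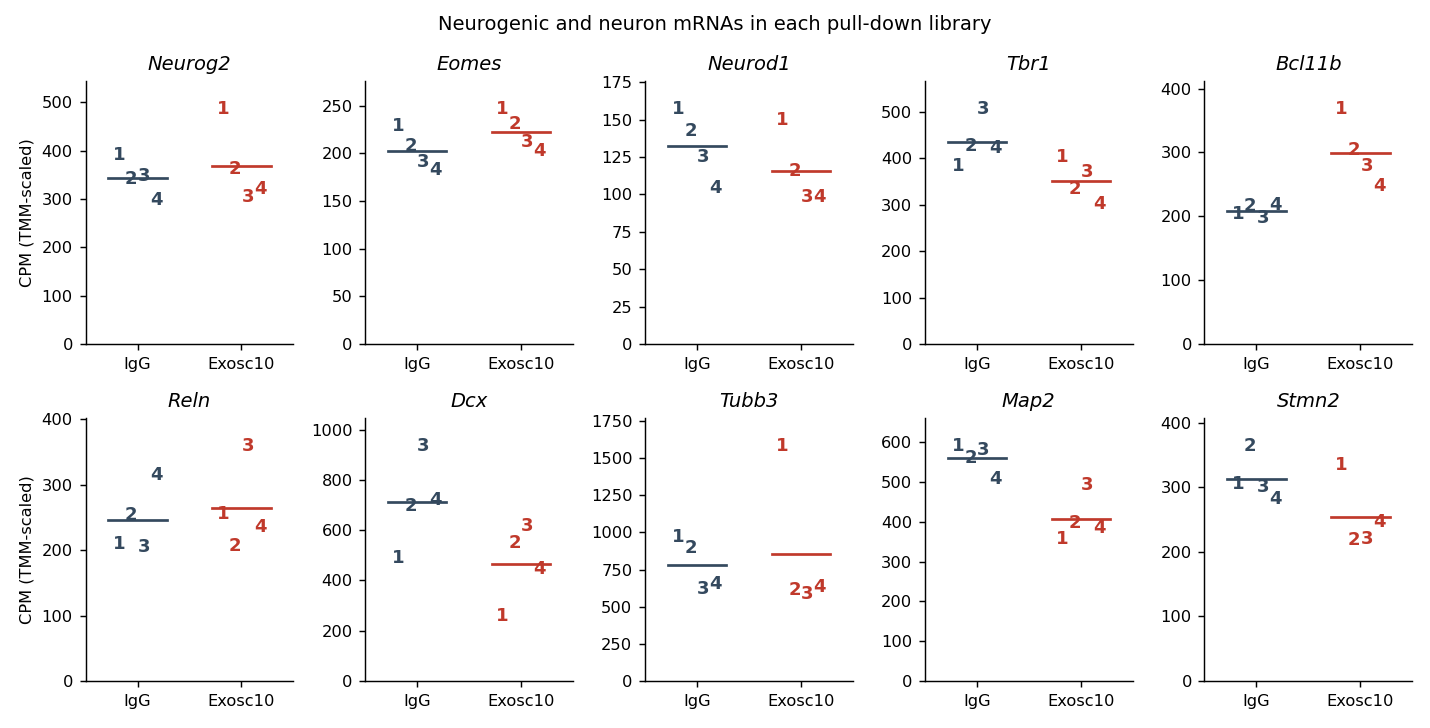
Each panel plots TMM-scaled CPM of 1 gene on an axis that starts at 0, with the library number as the symbol and a line at the mean of each group of 4. The groups stand apart for Bcl11b, where Exosc10 is higher, and for Map2, where it is lower; for Tubb3 the Exosc10 mean is drawn up by library 1 at 1583 CPM.

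Within a library, the ratio of 2 counts does not depend on scaling. The 45 ratios among the 10 genes were computed with an exact two-sided permutation test over libraries, for which the smallest p is 0.0286 with 4 against 4. The groups did not overlap in 10 of the 45, each at an exact p of 0.0286. None passed after adjustment over the 45 (adjusted p = 0.129 for each of those 10). At that smallest p a single separate ratio cannot pass this adjustment, so the result does not speak against a difference in any ratio. Over all pairs of the 16444 tested genes with a read in every library the share without overlap was 17.6%, so the count among the 10 genes is near the background. Bcl11b was part of 7 of the 10, which is a share of the separate ratios only. Its ratios to all the other genes of the list were separate, except those to Tubb3 and Reln. Bcl11b had separate groups by itself, so its ratios are not independent of that. With another denominator, 32.1% of the 16443 ratios of Bcl11b to another of those tested genes did not overlap. Reads of Bcl11b per read of Map2 were 1.03, 0.764, 0.564 and 0.646 in Exosc10 libraries 1 to 4. With IgG they were 0.343, 0.386, 0.340 and 0.428. The groups were already separate for each of the 2 genes, in opposite directions, so their ratio had to separate and is given for its size only. The mean log2 difference was 0.97, or 0.77 without both libraries numbered 1.

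The 2 neuron transcription factors were set against each other in the same way. Reads of Bcl11b per read of Tbr1 were 0.915, 0.912, 0.751 and 0.826 with Exosc10. They were 0.531, 0.508, 0.391 and 0.515 with IgG, all below the Exosc10 values. The mean log2 difference was 0.81, and 0.71 to 0.87 when each library was left out in turn. The exact permutation p was 0.0286, the smallest possible, and 0.129 after adjustment over the 45 ratios. Bcl11b alone already had separate groups, and Tbr1 nearly so in the opposite direction. The ratio is therefore given for its size and adds no separate support.

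The cytoskeletal mRNAs were set against the transcription factor mRNAs in the same way, as a description without a test. Reads of Dcx, Tubb3, Map2 and Stmn2 together, per read of the 5 transcription factors, were 1.53, 1.32, 1.52 and 1.46 with Exosc10. With IgG they were 1.73, 1.89, 1.78 and 1.77. The means were 1.46 ± 0.10 and 1.79 ± 0.07 (SD, n = 4 each), and the groups did not overlap. They also stood apart when Bcl11b was left out, at 1.87 ± 0.12 and 2.13 ± 0.10 (SD, n = 4 each). They overlapped when Dcx, Tubb3 or Map2 was left out. How often such sums of other genes stand apart was not computed. Among ratios of 2 single genes 17.6% did, so the separation is not read as particular to these genes. All 10 genes together took 0.358% ± 0.057 of the counts with Exosc10 and 0.395% ± 0.022 with IgG (SD, n = 4 each), with overlapping groups.

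**Figure D3:**
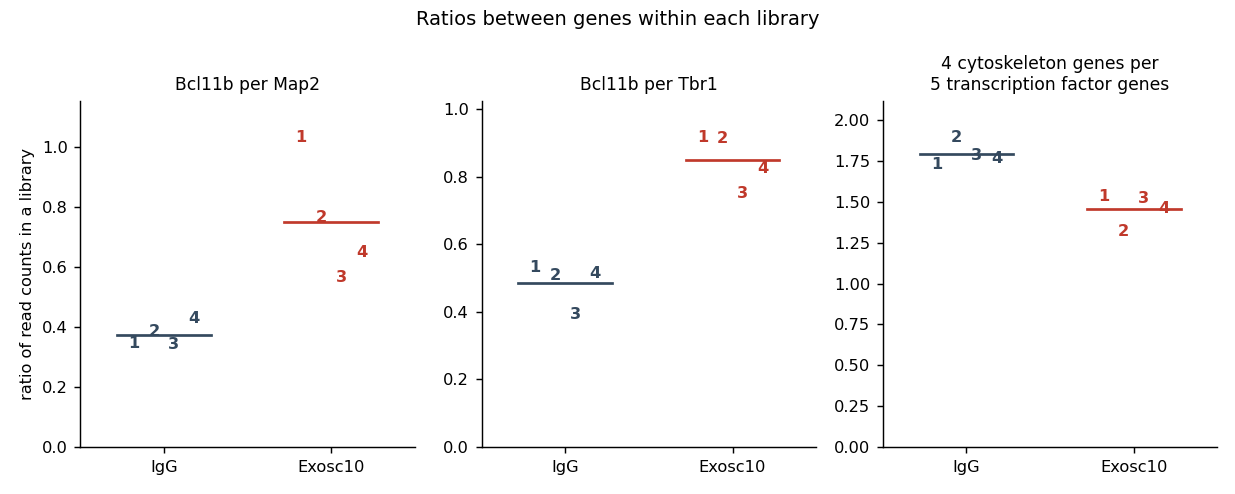
Each panel plots a ratio of read counts within a library, with the library number as the symbol and a line at the mean of each group of 4. Exosc10 libraries lie above IgG libraries for Bcl11b per Map2 and Bcl11b per Tbr1, and below them for the 4 cytoskeleton genes per 5 transcription factor genes.

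For Neurog2, Neurod1, Reln and Tubb3 the SD within each group was larger than the difference between the group means. The Exosc10 coefficient of variation was 57.1% for Tubb3, 33.6% for Dcx and 25.1% for Reln. With IgG the same genes stood at 22.5%, 25.6% and 20.7%, while Bcl11b was at 4.64% and Map2 at 6.68%. Tubb3 and Dcx deviated in opposite directions, with a correlation of -0.92 over the 8 libraries after subtracting group means, the lowest of the 45 pairs. Reads of Dcx per read of Tubb3 were 0.162 in Exosc10 library 1 and 0.504 in IgG library 1, against 0.706 to 1.05 in the other Exosc10 and 0.778 to 1.52 in the other IgG libraries. Tubb3 and Stmn2 deviated together, with a correlation of 0.89. In both groups library 1 was the highest for Neurog2, Neurod1, Eomes and Tubb3 and the lowest for Dcx. The part of sequencing depth or of RNA quality in this was not tested.

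**Figure D4:**
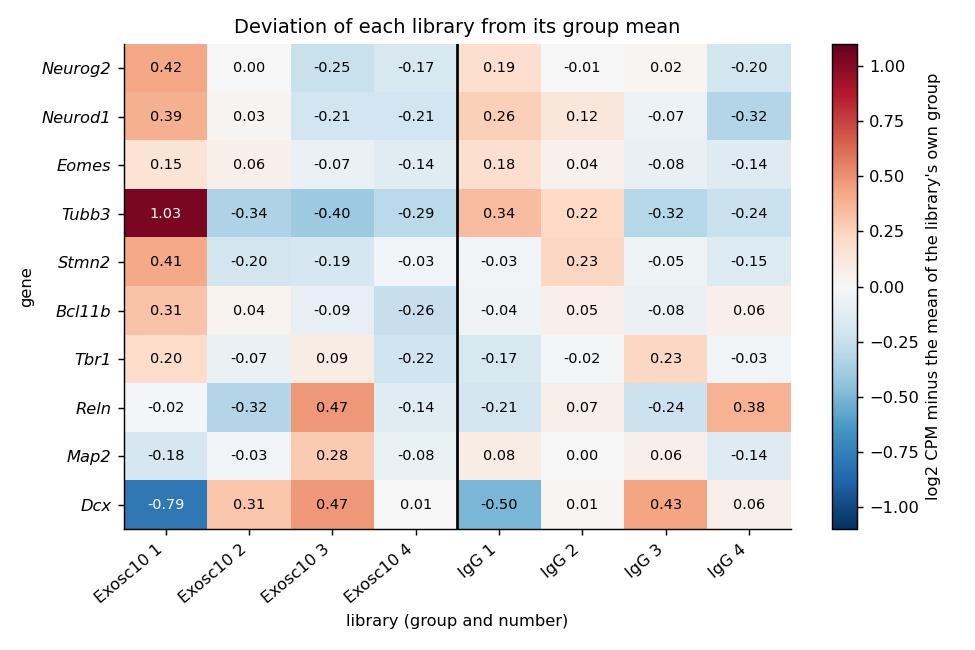
The map shows, for each gene and library, log2 CPM minus the mean of the library's own group, so that the difference between Exosc10 and IgG is removed. Library 1 of both groups is above the mean for Neurog2, Neurod1, Eomes and Tubb3 and below it for Dcx, at -0.79 and -0.50.

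The number of calls depended on the test, on the scaling, on a block for the replicate number and on the libraries numbered 1. With upper quartile scaling edgeR called Map2 lower (log2 fold change -0.54, adjusted p = 0.046), beside 1025 of all 16716 genes called higher and 1369 lower. DESeq2 called 1 of the 10 higher, Bcl11b (adjusted p = 0.0151), and 1 lower, Map2 (adjusted p = 0.0296), where 12.1% of all genes were called higher and 9.87% lower. The limma-voom fit with sample weights called Bcl11b higher and Dcx, Map2, Tbr1 and Stmn2 lower, where 20.1% of all genes were higher and 18% lower. With the replicate number as a block, edgeR called Bcl11b higher (adjusted p = 0.0215), and Dcx (adjusted p = 0.00648) and Map2 (adjusted p = 0.0270) lower. That fit called 2489 of all 16716 genes higher and 2006 lower. Without both libraries numbered 1, edgeR called Bcl11b higher (log2 fold change 0.39, adjusted p = 0.0315). Map2 was at -0.37 with an adjusted p of 0.0530. The same fit called 3 lower, Dcx (-0.55, adjusted p = 0.0157), Tbr1 (-0.43, adjusted p = 0.0261) and Stmn2 (-0.47, adjusted p = 0.0179), beside 17.1% of all genes called higher and 15.1% lower. Bcl11b was above 0, and Dcx, Map2, Tbr1, Stmn2 and Neurod1 below 0, in all 18 alternatives. Eomes was also above 0 in all of them, while Neurog2, Reln and Tubb3 changed sign in some.

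**Figure D5:**
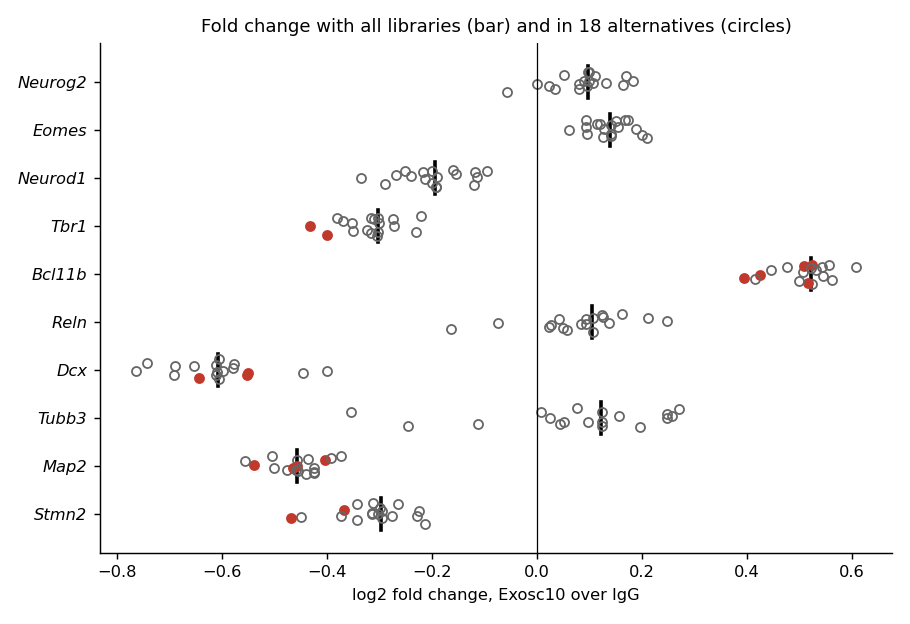
For each gene the bar marks the log2 fold change of Exosc10 over IgG with all libraries in edgeR, and the 18 circles the value in each alternative, filled where the adjusted p is under 0.05. Filled circles occur for Bcl11b to the right of 0 and for Tbr1, Dcx, Map2 and Stmn2 to the left, and none of the bars (TMM scaling, no block) has an adjusted p under 0.05.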

How the data were processed

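The authors deposited 1 file per library with a raw read count per Ensembl gene ID. Per the submitters' processing notes, the programs included STAR 2.5.2a, featureCounts 1.5.0-p1 and bcl2fastq 2.17.1.14, and the build was mm10; the annotation release, strand setting and handling of multi-mapping reads are not given in the sources used here. Samples were grouped by their titles. The test of the counts was that of edgeR 4.0.16 (R 4.3.3): filterByExpr (minimum count 10, minimum total 15), TMM scaling, a quasi-likelihood F-test over all 16716 genes without covariates, and Benjamini-Hochberg adjustment read at 0.05. The SE is the absolute log2 fold change over the square root of F. Log2 CPM used a prior count of 2. Symbols of the 10 genes come with their IDs; positions and upstream windows were taken from RefSeq (GRCm38.p6) by symbol. That table holds 0 Ensembl IDs, so 11 lists of related genes and of other cell types were not tested. All 10 genes are named, whatever their values. The list of 10 names and the other lists were chosen with earlier results of these data known, and the ratios between genes were a choice made after seeing the data. Other settings tried were DESeq2 1.42.0, limma-voom (limma 3.58.1), other scalings and filters, a replicate block, thinning to the smallest library, and leaving out libraries.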

Additional observations from a re-analysis of the deposited data

Results flagged for a closer look

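Tubb3 in Exosc10 library 1, at 1583 CPM, lay far from the other libraries of its group, which stood at 588 to 631 CPM. The gap was 0.957 of the group's whole range, above Dixon's critical value of 0.829 for 4 samples. Of the 20 groups of 4 examined (10 genes in each pull-down), 1 was thus marked, and chance marks about 1 in 20. The same library was the lowest of its group for Dcx, at 257 CPM.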

How the results depend on the processing

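Over the 10 genes and 18 alternatives, 157 fold changes kept their direction and their side of the threshold, 16 passed it and 7 changed sign, none of those 7 called. The count of the 10 called higher was 0 with all libraries in edgeR. It was 1 with DESeq2, limma-voom, the replicate block and without both libraries numbered 1, and 0 to 1 without each library in turn. The count called lower, also 0, was 1 with DESeq2 and with upper quartile scaling, 2 with the replicate block, 4 with limma-voom, 3 without both libraries numbered 1, and 0 to 0 without each library. All genes called, 2297, were 6374 with limma-voom, 4495 with the replicate block, 5463 without both libraries numbered 1, and 880 to 4046 without each library. With upper quartile scaling 42.8% of calls were higher, against 57.6%. Neurog2 was -0.000899 without both libraries numbered 1 and -0.057 to 0.18 without each library. Reln was -0.16 with limma-voom and -0.074 to 0.25 without each library. Tubb3 was -0.11 with limma-voom, -0.24 without both libraries numbered 1 and -0.35 to 0.27 without each library. No cause was tested for these changes. Over all genes, same-numbered libraries had deviations from their group means that correlated at 0.34, 0.095, 0.34 and 0.22. In the other group, 8 of 8 libraries correlated best with their own number. As 1 of the correlations lay below 0.1, the main test did not pair them, so what same-numbered libraries share stayed in its SE. The block called Bcl11b (adjusted p = 0.0215), Dcx (0.00648) and Map2 (0.0270). With a median SE of 0.19 on the log2 scale, small differences were not detectable.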

Other observations

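Among the 11701 other genes with a mean of at least 5 CPM, the 2 whose deviations from the group means were most like the mean deviation of the 10 genes over the 8 libraries were ENSMUSG00000026245 (Pearson correlation 0.98) and ENSMUSG00000032939 (0.98). They are the highest of many, so the value describes these libraries only.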
